A study of Mus musculus with 8 samples.

Results

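Col8a1, which encodes a short network-forming chain of collagen VIII, rose from 578 ± 39.1 (SD, n = 3) to 2096 ± 354 (n = 3) normalised reads after 12 h of retinoic acid (RA) in TAF4-/- mouse embryonic fibroblasts (MEFs), and the level at 72 h was 1993 ± 103 (n = 2). Col7a1, which encodes the chain of the anchoring fibril collagen VII, stood at 82.2 ± 7.97 normalised reads in untreated cells and at 121 ± 16.4 after 12 h of RA, and fell to 25.9 ± 4.15 after 72 h. Col4a1 and Col4a2, the chains of the basement membrane collagen IV present in most tissues, and Col18a1, the chain of collagen XVIII, did not pass the test in any of the 3 comparisons. These 5 genes are the basement membrane, anchoring and network collagens taken from the deposited table of 22200 genes by their symbols, and all 5 were found under 1 identifier each. All 5 were among the 12673 genes with a mean of at least 10 normalised reads over the libraries, which were the genes tested.

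The cells were immortalised MEFs on the C57BL/6 background, and every library carries the genotype label TAF4-/-, that is, loss of TAF4, part of the TFIID complex that binds core promoters. The 3 groups were untreated cells labelled 12 h (3 libraries), cells given RA for 12 h (3 libraries) and cells given RA for 72 h (2 libraries), and the study used the early time to look for direct targets of the RA receptors and the late time because the shape of the cells had then changed. Untreated cells were sequenced only at 12 h, and in any comparison with the 72 h group treatment and time in culture cannot be told apart. In the study's methods the TAF4-null line was made from 1 floxed MEF line by Cre recombinase, so all the libraries come from a single line, and nothing in the labels says that they came from separate cultures. The p-values therefore measure the spread between these libraries, which may be technical. The titles of all the libraries carry cl1, which resembles the study's name for its TAF4-expressing line, and the genotype labels were followed here. Taf4a, the gene of TAF4, had 984 to 1449 normalised reads across the 8 libraries, and with no TAF4-expressing library to set beside them and no read positions in the table this level cannot check the genotype.

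The depth of the libraries is unknown, because the deposited values were already normalised and every library holds the same set of sorted values, with the same total of 9442019. The RA treatment itself was visible in known RA target genes, of which 5 of 6 tested rose at 12 h. Cyp26b1, an RA-degrading enzyme, went from 59.0 ± 16.8 to 3746 ± 759 normalised reads (log2 change 5.99, SE 0.20, limma adjusted p = 3.76e-09). The 12 fibroblast markers summed to 236500 to 257200 normalised reads in untreated libraries, 237900 to 248600 at 12 h and 216600 to 222400 at 72 h. Vim (105200), Col1a1 (47250), Fn1 (42310), Col1a2 (27240) and Col3a1 (21180) made up most of the untreated sum, which therefore says little about the other markers. Thy1, Dcn and Lum were at or near the lowest value of 1 in the untreated group, and Fap had a mean of 9.17. The 8 endothelial markers summed to 63.6 to 120 normalised reads in untreated cells, 99.1 to 122 at 12 h and 99.5 to 120 at 72 h, and the 7 epithelial markers found summed to 24.0 to 42.1 over all libraries. The 7 macrophage and leukocyte markers summed to 70.6 to 110 over all libraries, and the 7 smooth muscle and pericyte markers to 27580 to 31590 in untreated libraries, 27160 to 29140 at 12 h and 23690 to 25140 at 72 h. In untreated cells Acta2 (13210) and Tagln (16500) made up most of this last sum, and its other genes had 13.1 (Myh11) to 218 (Cnn1). Members of a list also differed. The fibroblast marker Pdgfra rose at 12 h (log2 change 1.49, limma adjusted p = 2.67e-06) and Col3a1 fell at 72 h (-1.43, adjusted p = 8.25e-06). Rgs5, a pericyte marker, fell at 72 h (-1.67, adjusted p = 0.00797). The part of these cell types in the results was not tested.

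Collagens are built from 3 chains wound into a triple helix. The collagen IV made from Col4a1 and Col4a2 is a heterotrimer of 2 chains of the first and 1 of the second and forms the sheet-like scaffold of basement membranes, on which laminins, nidogens and perlecan are laid. Collagen VII forms anchoring fibrils that tie the epidermal basement membrane to the dermis, and its loss causes the blistering disease dystrophic epidermolysis bullosa. Collagen VIII forms hexagonal lattices, best known from the membrane under the corneal endothelium and from vessel walls. Collagen XVIII is a proteoglycan of basement membranes whose C-terminal end can be cut off as endostatin, an inhibitor of blood vessel growth. Fibroblasts are known to secrete several of these chains, which basement membranes of neighbouring cells can take up.

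The genes lie at 4 loci of the mm9 build. Col4a1 (ENSMUSG00000031502, chr8:11198423-11312826, minus strand) and Col4a2 (ENSMUSG00000031503, chr8:11312805-11449287, plus strand) are transcribed away from each other, and their annotated starts overlap by 22 bases. Col7a1 (ENSMUSG00000025650) spans chr9:108855631-108886920 on the plus strand. Col8a1 (ENSMUSG00000068196) spans chr16:57624371-57754850 on the minus strand. Col18a1 (ENSMUSG00000001435) spans chr10:76514923-76629293 on the minus strand. Whether reads were counted by strand is not given in the sources used here, so reads from the 22 shared bases cannot be assigned to 1 of the collagen IV genes.

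The labels describe libraries of short tags read next to the last DpnII site (GATC) of each transcript, whereas the study's methods describe fragmented mRNA, and which protocol made these values could not be settled. For each gene 1 tag that the labelled protocol would read is shown. Other transcripts of a gene may have another last-site tag, and 5 transcripts were listed for Col18a1 and 2 each for Col4a2 and Col7a1. GATC is in capitals, the 17 bases after it are in lower case, and each was read from the longest annotated transcript.
Col4a1: GATCcaataaaagatgaattg
Col4a2: GATCtaccagccttggctcac
Col7a1: GATCtctgctccctacccttg
Col8a1: GATCattaaatatctctaaaa
Col18a1: GATCctgttcagagaacccaa
No tag of these 5 is the last-site tag of any other gene among the 21334 genes for which one could be read. The Col8a1 tag starts 24 bases before the transcript end, in the 3′ UTR, at chr16:57624374-57624394. The Col4a1 tag (chr8:11199521-11199541), the Col4a2 tag (chr8:11448663-11448683) and the Col18a1 tag (chr10:76515168-76515188) are also in the 3′ UTR. The Col7a1 tag lies in the coding sequence and crosses an exon junction, from base 108885962 to base 108886082 of chromosome 9. Whether a tag across a junction was counted cannot be seen from the values.

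Per kilobase of exon, which is meaningful only if reads were spread along the transcripts as the methods state, the untreated levels fell into a high and a low class. Col4a2 had 149 ± 26.8 (SD, n = 3) normalised reads per kb, Col4a1 139 ± 20.0 and Col8a1 113 ± 7.66, and the libraries of each of these neighbours in the order overlapped. Col18a1 had 9.97 ± 0.41 and Col7a1 8.06 ± 0.78 normalised reads per kb, without overlap between them. A background estimated from gene span, described below, was not taken off here. It was 14.2 to 24.6% of the untreated Col18a1 level and 3.66 to 6.05% of the Col7a1 level, so the order of these 2 genes is uncertain. After 12 h of RA Col8a1 led the order with 410 ± 69.3, ahead of Col4a2 with 155 ± 8.67 and Col4a1 with 135 ± 2.33. At 72 h Col8a1 was at 390 ± 20.2 (n = 2) and Col7a1 was last with 2.54 ± 0.41, below Col18a1 with 7.06 ± 2.13.

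**Figure D1:**
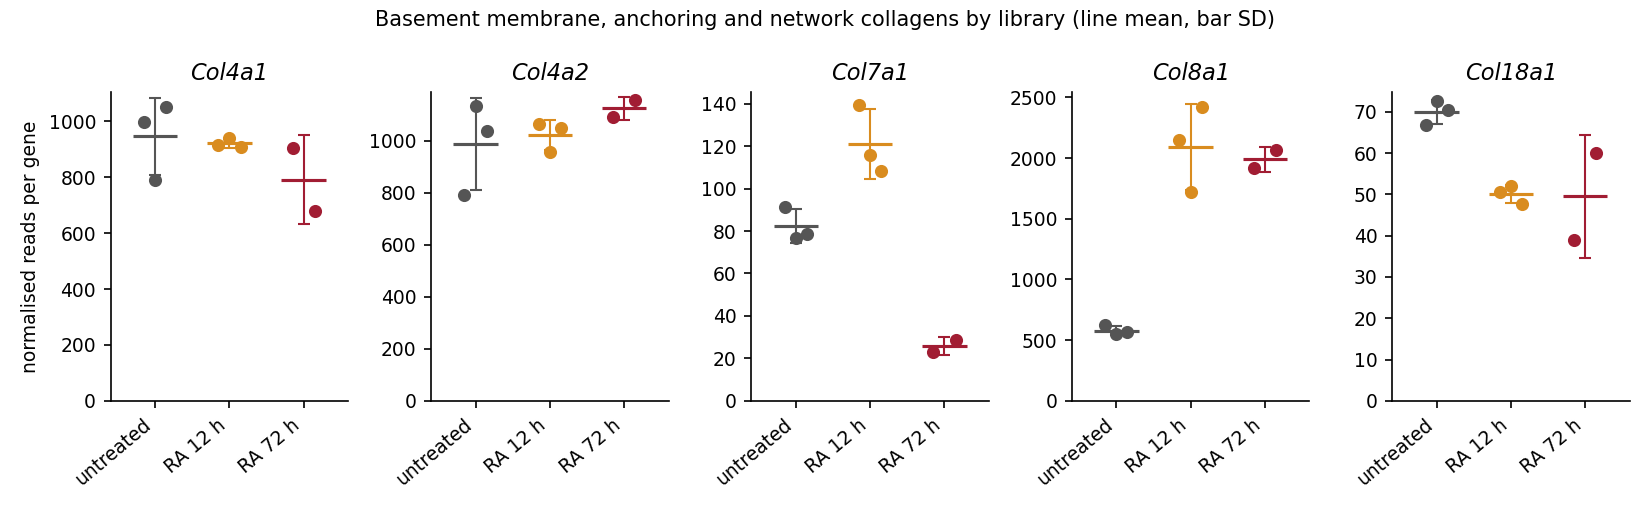
Normalised reads per gene (vertical axes, each from 0) of the 5 collagens in each library, for untreated cells, RA 12 h and RA 72 h; points are libraries, horizontal lines are group means and bars are SD. The RA libraries of Col8a1 sit at 1717 or above, the untreated ones at 622 or below, and the 72 h libraries of Col7a1 sit at 28.9 or below.

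A gene was called changed when limma gave a Benjamini-Hochberg adjusted p under 0.05 over all genes tested and the change was at least 2-fold. After 12 h of RA 1 of the 5 collagens was called, a rise, against 1.42% of all genes tested (1.11% higher and 0.308% lower). After 72 h 2 of 5 were called against untreated cells, 1 higher and 1 lower, with 3.67% of all genes called (2.15% higher and 1.52% lower). Between 12 h and 72 h of RA 1 of 5 was called, a fall, against 1.5% of all genes (0.765% higher and 0.734% lower). Groups that did not overlap were found for 3 of the 5 genes in each comparison, where 20.0%, 36.6% and 37.3% of all genes tested did not overlap. Both comparisons with untreated cells rest on the same 3 untreated libraries, so they are not independent of each other.

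**Figure D2:**
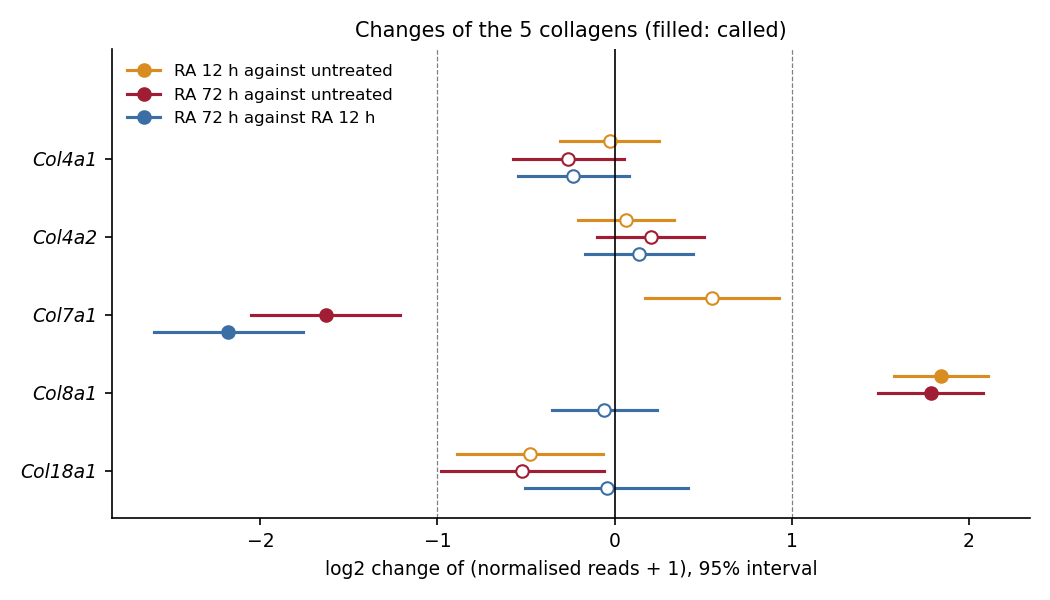
Log2 change of (normalised reads + 1) of each collagen in the 3 comparisons, with 95% intervals from limma; filled points were called and dashed lines mark 2-fold. Col8a1 lies beyond the 2-fold line at both times of RA, and Col7a1 lies beyond it only in the comparisons of the 72 h group.

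Col8a1 had 622, 547 and 564 normalised reads in the untreated libraries, 2151, 1717 and 2419 after 12 h of RA, and 1920.0 and 2066 after 72 h. Every RA library was above every untreated library, and the 12 h and 72 h libraries overlapped. In RNA of a whole culture, more cells with the transcript and more transcript per cell cannot be told apart, here or for the genes that follow. The log2 change at 12 h was 1.85 (SE 0.12, 95% interval 1.58 to 2.11, 3.59-fold, limma adjusted p = 1.05e-06), and Col8a1 was number 35 by rise among all genes tested. At 72 h it was 1.79 (SE 0.14, interval 1.49 to 2.08, 3.45-fold, adjusted p = 2.39e-06). From 12 h to 72 h the log2 change was -0.06 with an interval of -0.36 to 0.24 (adjusted p = 0.879), so a change beyond these bounds in either direction was not seen. Among the 33 collagen genes tested, Col8a1 had the largest rise at 12 h and at 72 h. Col8a2, the other chain of collagen VIII, was below the limit for testing, with group means of 7.46, 5.13 and 8.38 normalised reads.

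Col7a1 had 91.4, 76.9 and 78.4 normalised reads in untreated libraries, 140, 116 and 108 after 12 h of RA, and 23.0 and 28.9 after 72 h. The 3 groups did not overlap, with the 12 h libraries highest and the 72 h libraries lowest. At 12 h the log2 change was 0.55 (SE 0.17, interval 0.17 to 0.93) and was not called (limma adjusted p = 0.111). At 72 h Col7a1 fell by 1.63 on the log2 scale against untreated cells (SE 0.19, interval -2.05 to -1.21, 3.1-fold lower, adjusted p = 0.000101). Against 12 h of RA it fell by 2.18 (SE 0.19, interval -2.60 to -1.76, 4.54-fold lower, adjusted p = 3.98e-05), which was the seventh largest fall of all genes tested and the second largest among the collagens. Because the values are low, the fold on the log2(value + 1) scale understates the change, and the ratio of the group means at 72 h to untreated was 0.316.

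Both genes that passed the test are shown with the 250 bases before their annotated starts (RefSeq, GRCm38.p6), which were searched on both strands. The motifs were the GC box (GGGCGG), the TATA box (TATAAA), the CCAAT box, the AP-1 site (TGANTCA), the AGGTCA element that nuclear receptors such as the RA receptors bind, and the direct repeats of this element with 5 or 2 bases between its copies. Capitals mark matches on either strand. The Col7a1 window is chr9:108953336-108953585 (plus strand) and the Col8a1 window is chr16:57754738-57754987 (minus strand).
Col7a1: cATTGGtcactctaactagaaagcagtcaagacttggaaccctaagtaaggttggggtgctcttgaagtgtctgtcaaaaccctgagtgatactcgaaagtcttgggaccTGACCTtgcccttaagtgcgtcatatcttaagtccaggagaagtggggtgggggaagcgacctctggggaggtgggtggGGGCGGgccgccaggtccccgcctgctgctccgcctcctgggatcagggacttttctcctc
Col8a1: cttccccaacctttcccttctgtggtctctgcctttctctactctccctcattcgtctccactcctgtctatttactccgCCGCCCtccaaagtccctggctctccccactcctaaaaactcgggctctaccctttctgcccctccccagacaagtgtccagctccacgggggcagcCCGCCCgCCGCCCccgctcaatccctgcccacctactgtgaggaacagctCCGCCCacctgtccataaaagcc
The Col7a1 window holds 1 GC box, 1 CCAAT box and 1 AGGTCA element, and the Col8a1 window holds 4 GC boxes and none of the other motifs. Of 32817 RefSeq windows of the same length, 32.7% hold a GC box, 33.8% a CCAAT box, 14.0% the nuclear receptor element, 12.4% a TATA box and 6.75% an AP-1 site, and each of the repeats is in 0.00914%. Neither window holds a repeat, which says only that these letters are not in these 250 bases.

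Col18a1 had 66.9, 72.6 and 70.5 normalised reads in untreated libraries, 50.5, 52.0 and 47.6 after 12 h of RA, and 39.0 and 60.1 after 72 h. Every RA library was below every untreated library, and the 72 h libraries lay on both sides of the 12 h ones. The log2 change at 12 h was -0.48 (SE 0.19, interval -0.89 to -0.07, limma adjusted p = 0.225). At 72 h it was -0.52 (SE 0.21, interval -0.98 to -0.06, adjusted p = 0.152), and neither change was called. Without 72 h replicate 2 the change at 72 h was -0.83, and without replicate 1 it was -0.22. Col18a1 has a span of 114.4 kb, and reads that may fall anywhere along a gene were estimated in each library from its span. Like the levels per kb, this estimate is meaningful only if reads were spread along genes, and the protocol could not be settled. It was set at the 25th percentile of 2365 genes spanning at least 100 kb, whether or not they were expressed. This background came to 14.2 to 24.6% of the Col18a1 level in untreated libraries, 27.7 to 33.9% at 12 h and 23.7 to 47.0% at 72 h. With that background taken off, the changes were -0.71 at 12 h (adjusted p = 0.172) and -0.85 at 72 h (adjusted p = 0.0823).

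The same background was 0.623 to 3.5% of the Col8a1 level and at most 2.13% of the level of either collagen IV gene in any library. For Col7a1 it was 3.34 to 6.05% in untreated and 12 h libraries and 13.5 to 21.8% at 72 h, where the gene was low. With it taken off, the log2 change of Col7a1 at 72 h against untreated cells was -1.84 (adjusted p = 7.08e-05).

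Col4a1 had 997, 792 and 1051 normalised reads in untreated libraries, 916, 940 and 910 after 12 h of RA, and 904 and 680 after 72 h. The untreated libraries spanned both RA groups, except for 72 h replicate 2, which was the lowest of all. The log2 changes were -0.03 at 12 h (SE 0.13, interval -0.31 to 0.25, limma adjusted p = 0.94) and -0.26 at 72 h (SE 0.15, interval -0.58 to 0.05, adjusted p = 0.306). At 72 h the change was -0.47 without 72 h replicate 1 and -0.06 without 72 h replicate 2, and neither was called. The intervals over all libraries leave out a 2-fold change.

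Col4a2 had 792, 1136 and 1038 normalised reads in untreated libraries, 1064, 959 and 1050 after 12 h of RA, and 1094 and 1157 after 72 h. The untreated libraries spanned the 12 h group, and the 72 h libraries were above all 12 h libraries, with untreated replicate 2 between them. Its log2 change was 0.07 at 12 h (SE 0.13, interval -0.21 to 0.34, limma adjusted p = 0.834) and 0.20 at 72 h (SE 0.14, interval -0.10 to 0.51, adjusted p = 0.427). At 72 h the change was 0.05 without untreated replicate 1 and 0.31 without untreated replicate 2, and neither was called. Here too the intervals over all libraries leave out a 2-fold change.

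Since both collagen IV chains enter 1 heterotrimer, the ratio of Col4a2 to Col4a1 was taken in each library. Its log2 value was -0.33, 0.52 and -0.02 in untreated libraries, 0.22, 0.03 and 0.21 after 12 h of RA, and 0.28 and 0.77 after 72 h. The 72 h libraries were above all 12 h libraries, and untreated replicate 2 lay between them. The difference from untreated was 0.09 at 12 h (exact permutation test, two-sided, p = 0.7) and 0.46 at 72 h (exact permutation test, p = 0.4). Between 12 h and 72 h it was 0.37, with groups that did not overlap (exact permutation test, p = 0.2). The adjusted values over the 3 pairs were 0.7, 0.6 and 0.6. The smallest two-sided p of this test is 0.1 for 3 against 3 libraries and 0.2 for 2 against 3. The p between 12 h and 72 h was therefore the lowest that its groups allow. The untreated libraries alone spread over an SD of 0.43 on the log2 scale. Single libraries moved these differences by more than 1.5 times. The difference at 12 h was -0.10 without untreated replicate 1 and 0.33 without untreated replicate 2, and between 0.06 and 0.15 without any other 1 library of these groups. At 72 h against untreated it was 0.27 without untreated replicate 1, 0.70 without untreated replicate 2, 0.71 without 72 h replicate 1 and 0.22 without 72 h replicate 2. Between the times it was 0.62 without 72 h replicate 1 and 0.13 without 72 h replicate 2.

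**Figure D3:**
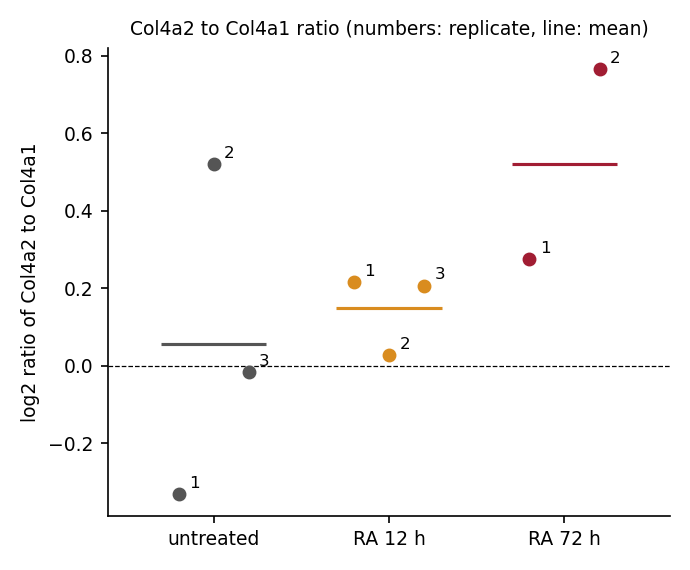
Log2 ratio of Col4a2 to Col4a1 normalised reads in each library (points, numbered by replicate) by group, with the group mean as a line. The untreated libraries run from -0.33 to 0.52, which contains every 12 h library, and the 72 h libraries are at 0.28 and 0.77.

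Across the 8 libraries the Pearson correlation of log2(value + 1), given as a description over libraries that share the 3 groups, was -0.63 between Col4a1 and Col4a2 and -0.82 between Col8a1 and Col18a1. The other pairs lay between -0.42 and 0.50. The genes whose pattern was most like that of Col8a1 over the 8 libraries were Inmt (r = 0.991), Hk2, a hexokinase (r = 0.989), and Cyp26b1 (r = 0.985), and 74 genes had r over 0.95. For Col7a1 they were Pitpna (r = 0.985), Snrpn (r = 0.984) and Pcdh19 (r = 0.979). For Col4a1 they were Pak1ip1 (r = 0.978), Btbd11 and Lrrc1 (r = 0.966 each), for Col4a2 Mad1l1 (r = 0.952), Actn4 (r = 0.941) and Uty (r = 0.939), and for Col18a1 6030490I01Rik (r = 0.97), Rai16 (r = 0.96) and Tnip1 (r = 0.959).

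Of 28 other collagen genes tested, none was called higher and 1 lower at 12 h, and 1 was called higher and 5 lower at 72 h, with median log2 changes of 0.06 and 0.01. Over all genes tested 1.42% were called at 12 h and 3.67% at 72 h. Col14a1, a collagen on the surface of fibrils, rose at 72 h by 1.19 (adjusted p = 0.0213). Col6a3, a chain of microfibrillar collagen VI, had the largest fall, a log2 change of -3.73 at 72 h, followed by Col6a2 (-2.02) and Col5a3 (-1.96), and Col7a1 came next (-1.63). Of the 6 other chains of the same collagen classes that were tested, limma called 0 in any comparison, with 4, 2 and 1 at an unadjusted p under 0.05 at 12 h, at 72 h and between the times (16.3%, 23.9% and 18.9% of all genes tested). Col4a6 had a log2 change of -0.81 at 12 h (adjusted p = 0.00803), below the 2-fold limit. Col4a5, another collagen IV chain, had 844 ± 147, 1060 ± 83.6 and 1113 ± 47.6 normalised reads in the 3 groups and was not called.

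**Figure D4:**
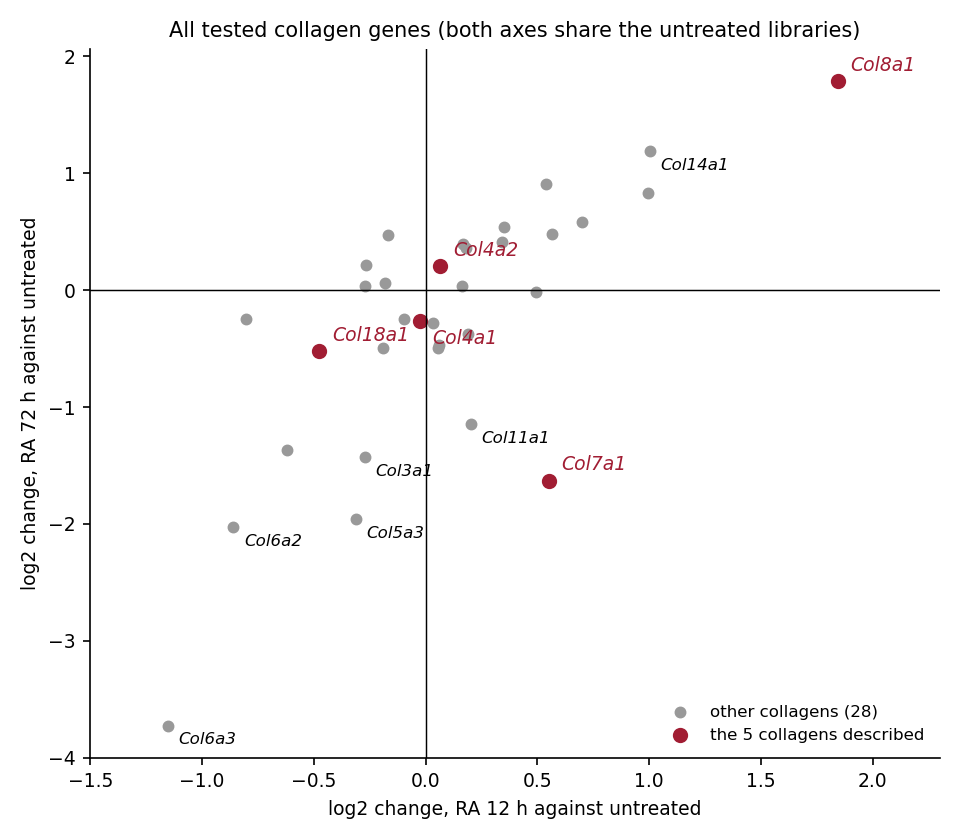
Log2 change at 72 h (vertical) against log2 change at 12 h (horizontal) of the 33 collagen genes tested, both relative to the same untreated libraries; the 5 collagens described are in red and called others are named. Col8a1 lies at the top right with 1.85 and 1.79, and Col7a1 lies to the right of zero at 12 h and at -1.63 at 72 h.

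Among 25 other basement membrane genes tested, 2 rose and 1 fell at 12 h and 3 rose at 72 h, where 1.42% and 3.67% of all genes tested were called. Nid1, nidogen 1, a linker between laminin and collagen IV, went from 2774 ± 359 to 4434 ± 341 and then to 6823 ± 1191 normalised reads (log2 change 1.30 at 72 h, adjusted p = 4.36e-05). Tinagl, a matrix glycoprotein gene, rose at both times (1.74 and 2.34), as did Ntn4, a netrin of basement membranes (1.21 and 1.88), and Smoc1, a matrix calcium-binding protein, fell at 12 h by 1.24. The laminin genes Lama5 and Lamb2 were not called, nor was Sparc, a collagen-binding protein. Of the 11 tested collagen receptor genes limma called 0 in any comparison. At an unadjusted p under 0.05 there were 1, 3 and 2 of them at 12 h, at 72 h and between the times. Over all genes tested these shares were 16.3%, 23.9% and 18.9%. Itgb1, the common integrin chain, had log2 changes of -0.10 and 0.05 at 12 h and 72 h.

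Of 15 genes of collagen crosslinking and propeptide processing, 2 rose at 12 h, and 2 rose and 1 fell at 72 h. The shares called over all genes tested were 1.42% and 3.67%. Loxl2, a lysyl oxidase that crosslinks collagen IV, rose from 59.6 ± 3.59 to 259 ± 15.6 and then 288 ± 12.0 normalised reads (log2 changes 2.10 and 2.25). Tgm2, a transglutaminase and one of the RA targets checked above, rose by 3.34 and 4.03. Tll1, a tolloid-like protease for propeptides, fell at 72 h by 1.09. Pxdn, the peroxidase that forms sulfilimine bonds in collagen IV, had log2 changes of -0.38 and -0.15 and was not called.

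Of 18 genes of collagen folding and modification, 1 was called, at 12 h, where 1.42% of all genes tested were called. Creb3l1, a transcription factor of the secretory pathway, had 290.4 ± 3.90, 603 ± 38.3 and 319.5 ± 41.4 normalised reads in the 3 groups and rose at 12 h (log2 change 1.05, adjusted p = 4.64e-05). The chaperone genes P4hb, Ppib and Serpinh1 were not called. Of 12 proteases and inhibitors, 1 rose at each time, against 1.42% of all genes tested called at 12 h and 3.67% at 72 h. Mmp3, a protease that cuts collagen IV, rose by 1.30 at 12 h, had a log2 change of 0.04 at 72 h, and had a log2 change of -1.26 between the times, which was called. Plau, the urokinase gene, had log2 changes of 0.96 at 12 h, which was just under 2-fold, and 1.31 at 72 h, which was called.

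**Figure D5:**
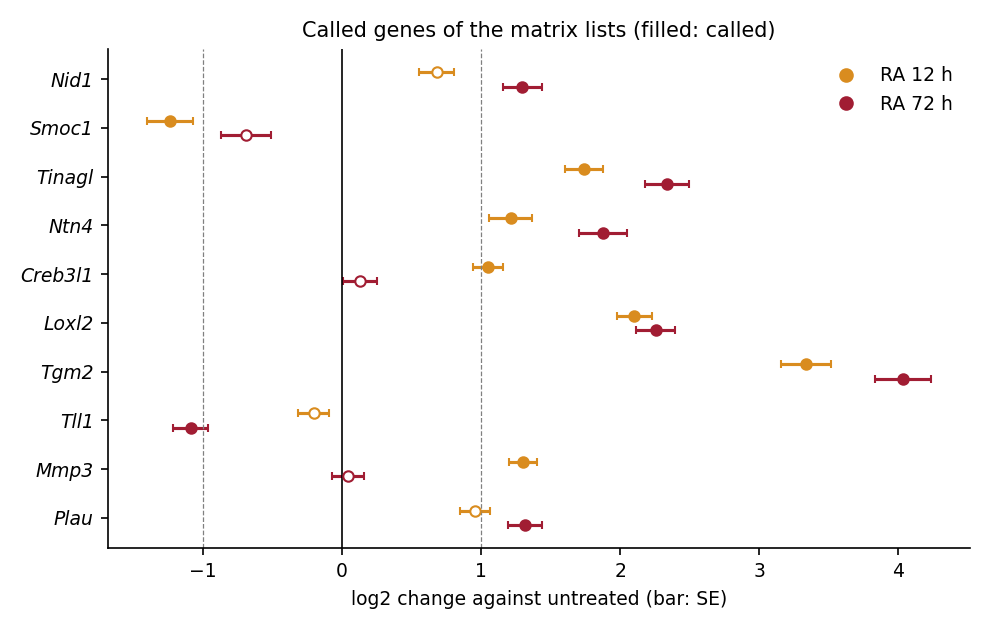
Log2 change against untreated cells at RA 12 h and RA 72 h, with SE as bars, of the called genes of the basement membrane, folding, crosslinking and protease lists; filled points were called and dashed lines mark 2-fold. Tgm2 and Loxl2 are beyond 2-fold at both times, and Creb3l1 and Mmp3 are beyond it at 12 h only.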

How the data were processed

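RNA of 8 libraries from immortalised TAF4-/- MEFs was measured by sequencing. The authors deposited 1 table of normalised reads per Ensembl gene, a signal that is neither a count nor a CPM value (mm9 per the labels). The study's methods name Tophat, Cufflinks and a scaling by size factors, but the sorted values of the libraries are identical, as after quantile normalisation, and all values under 1000 are multiples of 0.125. Other scaling could change the values, and the depth is unknown. The methods give 12 and 24 h of RA, the labels 12 and 72 h. The labels were followed. The line without a gene was left out, and the authors' group averages and fold ratios were not used. The deposited total and the lowest value of 1 are the same in every library.

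Values were analysed as log2(value + 1) in limma 3.58.1 (R 4.3.3), in a model of 3 groups with a variance trend, over genes with a mean of at least 10, with Benjamini-Hochberg adjustment. Calls needed an adjusted p under 0.05 and at least 2-fold. The script was tested on simulated data. Exact permutation tests used scipy 1.17.1. The alternatives were a pseudocount of 10, a mean of at least 50 or no filter, other variance settings, other call rules, a replicate block, a term for the main axis within groups, the span background (25th percentile) and leaving out each library. Genes were placed with gencode vM1, which matched 21465 of the identifiers. Upstream windows are RefSeq (GRCm38.p6), and all 5 collagens matched. Named genes were the 5 collagens, called genes of each list (at most 6), up to 3 uncalled genes of highest level, and the 3 most similar genes. The members and lists were chosen with earlier results of these data known.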

Additional observations from a re-analysis of the deposited data

Results flagged for a closer look

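The change of Col7a1 differed between the times of RA. Its log2 change against untreated cells was 0.55 at 12 h (uncalled) and -1.63 at 72 h, and the difference between the times, tested directly as the contrast of 72 h with 12 h in limma, was -2.18 (SE 0.19, adjusted p = 3.98e-05). Both 72 h libraries were below all 3 of the 12 h libraries. The 72 h group differs from the 12 h group in time in culture as well as in length of treatment, and these cannot be told apart.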

How the results depend on the processing

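Of 354 alternative values, 348 kept their direction and 6 changed sign. Each change of sign was for an uncalled change or ratio and came on leaving out 1 library. Many of the 354 could not change sign, so the 348 is no measure of how firm the results are. Counts of genes called cannot be negative. Other filters, variance settings and call rules leave a log2 change as it was, as does leaving out a library of the group not compared. Col4a1 at 12 h was 0.015 without untreated replicate 1 and 0.053 without untreated replicate 3 (range -0.151 to 0.053), and Col4a2 at 12 h was -0.086 without untreated replicate 1 (range -0.086 to 0.174). Between 12 h and 72 h, Col8a1 was 0.051 without RA 12 h replicate 3 (range -0.196 to 0.051) and Col18a1 was 0.261 without RA 72 h replicate 1 (range -0.351 to 0.261). The Col4a2 to Col4a1 log2 ratio at 12 h was -0.101 without untreated replicate 1 (range -0.101 to 0.325). The calls of Col8a1 at 12 h (1.73 to 1.98) and 72 h (1.73 to 1.84) and of Col7a1 at 72 h (-1.79 to -1.47) and between the times (-2.34 to -2.02) were kept in every fit that left out a library. Same-numbered libraries correlated at -0.47 to 0.42 in their deviations from group means, so no steady pairing by replicate number was seen. With so few libraries per group these correlations cannot tell whether libraries shared a culture or a batch. With the replicate number as a block Col7a1 at 72 h was -1.69 (adjusted p = 0.000835), and no call of the 5 collagens changed. With a term for the main axis within groups the limma adjusted p of Col7a1 at 12 h was 0.0431, still under 2-fold. That axis was derived from the same values and holds 50.1% of the variance within groups. Fitting it lowers the spread by construction, so this p cannot be read as a test. The number of genes called at 12 h was 180, with 138 to 322 over the alternatives (322 without untreated replicate 3). At 72 h it was 465, with 297 (minimum mean of 50, which tests fewer genes) to 641 (without untreated replicate 3), and between the times 190 (140 to 233). Only 2 libraries at 72 h, no untreated cells at that time and an unknown depth limit the comparisons.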
